A study of Mus musculus with 9 samples.

Results

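A set of 10 enzymes that make prostaglandins, thromboxane and leukotrienes were followed in RNA of the mouse lung with and without irradiation. The genes were taken by function. They were the cyclooxygenases Ptgs1 and Ptgs2, the prostanoid synthases Ptges, Ptgds, Hpgds, Ptgis and Tbxas1, the lipoxygenases Alox5 and Alox15, and the leukotriene C4 synthase Ltc4s. All 10 were found among the 19694 genes that were named on the arrays and tested, and each was read from its brightest probe. The data were 9 single-color microarrays, of which the labels name 4 as control and 5 as left lung tissue after irradiation, from male C57BL/6 mice aged 10 weeks. The left lung had received radiation in a single exposure under zoletil and rompun, an anesthesia that the labels list for the control samples too. The labels do not say which dose, lung region or time each irradiated array stands for, so the spread among the 5 irradiated arrays includes any such differences. The RNA was pooled before labeling, and an array therefore stands for a pool and not for a mouse. Nothing in the labels says that the pools were independent, and p-values measure the spread between these arrays, part of which may be technical.

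Cyclooxygenases turn arachidonic acid, released from membranes by phospholipases, into prostaglandin H2. Terminal synthases then make prostaglandin E2, prostaglandin D2, prostacyclin or thromboxane from it, each acting on receptors of its own. The lipoxygenase branch makes leukotrienes from the same fatty acid, and in the lung cysteinyl leukotrienes are known for narrowing the airways and drawing in eosinophils. The comparison asked whether the RNA of these enzymes, and then of their receptors and partners, differed between irradiated and control lung.

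The sequence before the start of transcription is shown for the genes whose RNA differed most. The RefSeq promoter windows of the mouse build GRCm38.p6, which run from 250 bases before to 50 bases after a gene's start, held 8 of the 10 genes. Ptgis and Alox15 were not matched. The 4 genes with the smallest p-values below are shown by the 250 bases before their start, 5′ to 3′ on the gene's strand, with the letters of the searched motifs in capitals. Ptgs1 lies at chr2:36230176-36230425 on the plus strand, Ptgs2 at chr1:150099781-150100030 on the plus strand, Tbxas1 at chr6:38918736-38918985 on the plus strand and Hpgds at chr6:65144731-65144980 on the minus strand.
Ptgs1: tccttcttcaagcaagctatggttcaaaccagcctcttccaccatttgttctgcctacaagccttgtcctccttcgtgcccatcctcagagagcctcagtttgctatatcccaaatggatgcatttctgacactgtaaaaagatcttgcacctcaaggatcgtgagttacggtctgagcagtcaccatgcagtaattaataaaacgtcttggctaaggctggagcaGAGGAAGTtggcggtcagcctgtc
Ptgs2: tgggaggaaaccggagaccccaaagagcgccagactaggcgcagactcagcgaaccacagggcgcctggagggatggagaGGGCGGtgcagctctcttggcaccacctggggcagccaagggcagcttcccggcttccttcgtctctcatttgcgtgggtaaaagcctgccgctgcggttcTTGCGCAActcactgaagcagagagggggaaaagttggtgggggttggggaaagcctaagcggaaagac
Tbxas1: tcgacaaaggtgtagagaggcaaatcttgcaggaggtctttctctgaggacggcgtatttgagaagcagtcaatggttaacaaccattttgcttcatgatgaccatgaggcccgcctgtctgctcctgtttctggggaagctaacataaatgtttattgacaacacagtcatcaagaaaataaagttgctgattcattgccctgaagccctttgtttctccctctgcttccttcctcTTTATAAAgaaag
Hpgds: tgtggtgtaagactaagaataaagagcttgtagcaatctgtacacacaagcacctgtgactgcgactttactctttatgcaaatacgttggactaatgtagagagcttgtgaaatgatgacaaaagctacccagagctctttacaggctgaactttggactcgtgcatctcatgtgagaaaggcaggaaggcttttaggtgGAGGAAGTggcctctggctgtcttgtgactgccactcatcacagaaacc
The strings below were searched on both strands of the whole windows. GAGGAAGT, the box of the myeloid factor PU.1, was in the windows of Ptgs1 and Hpgds and in 3.2% of all 32851 windows. TTGCGCAA, a palindrome bound by C/EBP factors, was in the Ptgs2 window and in 0.183% of all windows. GGGCGG, the GC box, was in those of Ptgs2, Ptges and Alox5 and in 35.7% of all. The TATA box TATAAA was in the Tbxas1 window, on both strands at overlapping positions, and in 13.6% of all. Past its start, Ptgs2 also had CGTCA, part of a cyclic AMP response element, overlapping the E-box CACGTG. These were in 20.8% and 7.15% of all windows. TGAGTCA, the AP-1 site, was in the Ptgds window and in 5.2% of all. The GC content was 59.3% for Ptgs2, 50.7% for Ptgs1, 46.7% for Hpgds and 44.3% for Tbxas1, against a median of 52.7% over all windows.

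On each array, 72.8% to 89.1% of the spots stood well above background by the scanner's own mark, and none was saturated. Lung markers such as Sftpc and Scgb1a1 were bright on every array, and the summed intensity of the 7 lung genes was 1781960 to 1852970 units in control and 1725100 to 1812760 units in irradiated lung. After quantile normalization Sftpc read 19.36 or 19.43 on every array and Scgb1a1 19.08 to 19.19. The likeness of these sums is thus set in part by the normalization and does not show like tissue content. A pair of arrays stood apart in tissue content. Irradiated array 1 had the least cardiac muscle RNA, a sum of 11600 units against 147232 to 293658 on the controls, and control array 3 had a skeletal muscle sum of 98841 units against 709 to 1996 on the other 8 arrays. Adipocyte genes summed to 36039 to 102743 units in control and 5580 to 65104 units in irradiated lung. All 5 differences were negative (median -2.41). Of these, 4 had an unadjusted limma p under 0.05, where 4.98% of all genes were lower at that p. Results are therefore given with and without irradiated array 1 or both of these arrays where that matters. Each of the 4 control arrays also had nearly the same scan height and local background as an irradiated array (control 1 with irradiated 2, control 2 with irradiated 3, control 3 with irradiated 4, control 4 with irradiated 5), while irradiated array 1 had no such partner. Deviations from the group means correlated between the arrays of these scan pairs, with r from 0.18 to 0.43 across genes, which are not independent replicates.

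None of the 10 synthesis genes differed between the groups at an adjusted p under 0.05 (limma, adjusted over all probes). Of all genes 0.416% did, 0.264% higher and 0.152% lower in irradiated lung. With the scan pairs as a block or a random block, given below, 2 and 4 of the 10 passed, where 2.81% and 7.38% of all probes did. Both cyclooxygenases were higher on every irradiated array than on every control array. That was 2 of 10 genes, against 3.4% of all genes, and none of the 10 lay wholly below the controls, against 1.76% of all genes. At an unadjusted limma p under 0.05, 4 genes were higher (Ptgs1, Ptgs2, Hpgds and Tbxas1), against 7.37% of all genes, and none was lower, against 4.98%. The differences of the 10 genes, irradiated minus control on the log2 scale, ranged from -0.66 to 1.06 with a median of 0.25, and 6 were positive. Over all genes the median was 0.0085 and 51.9% were positive. In whole tissue, a smaller number of cells of a type and less RNA per cell cannot be told apart, here or below.

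**Figure D1:**
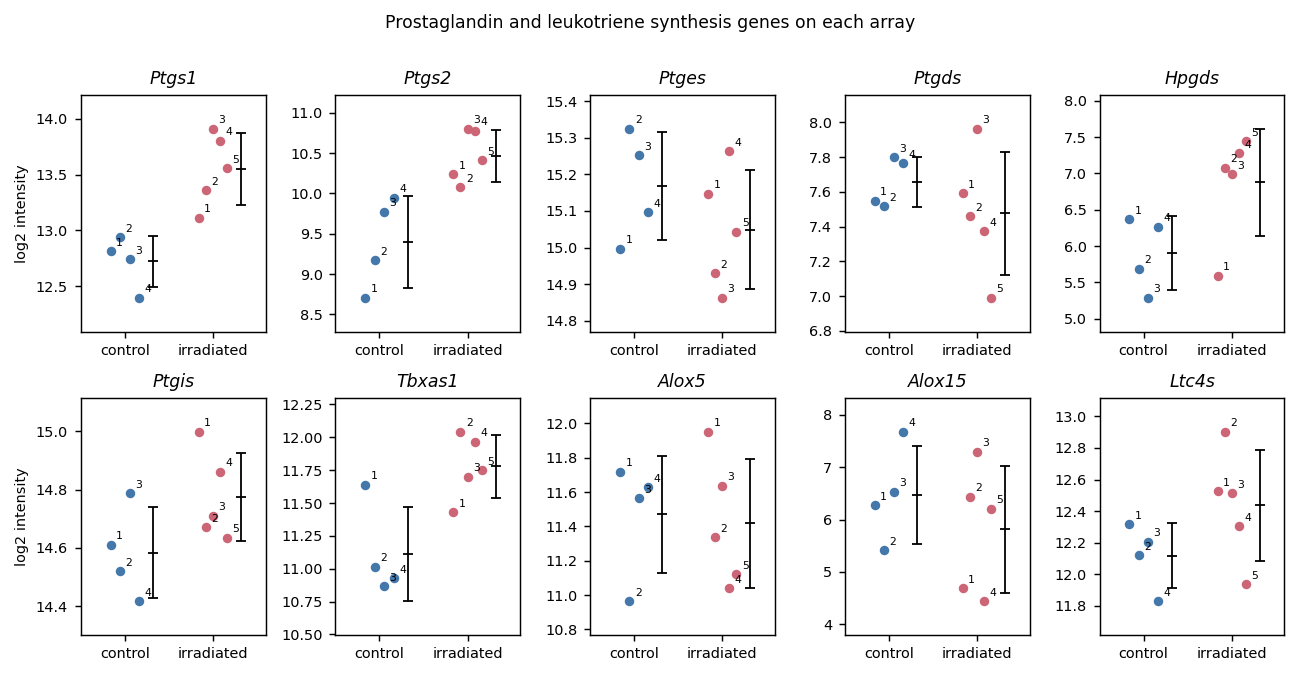
Log2 intensity of the 10 synthesis genes on each array (vertical axis, a separate scale for each gene), with control arrays in blue, irradiated arrays in red, array numbers beside the points and bars for the group mean ± SD. Ptgs1 and Ptgs2 are the genes whose groups do not overlap, and irradiated array 1 is the lowest irradiated array for Hpgds.

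Ptgs1 encodes the cyclooxygenase that most tissues make constantly. Its log2 intensity was 12.81, 12.94, 12.74 and 12.40 on control arrays 1 to 4. On irradiated arrays 1 to 5 it was 13.11, 13.36, 13.91, 13.80 and 13.56. Every irradiated array lay above every control array, with a gap of 0.18 between the nearest arrays, and irradiated array 1 was the lowest of its group. The mean was 12.72 ± 0.23 (SD, n = 4) in control and 13.55 ± 0.32 (SD, n = 5) in irradiated lung, a difference of 0.83 (SE 0.17, 95% confidence interval 0.44 to 1.21) or 1.77-fold. The unadjusted limma p was 0.000745 and the adjusted p was 0.0912, and the exact permutation p was 0.0159. Without irradiated array 1 the difference was 0.94 and passed the threshold (limma adjusted p = 0.0289), as did 0.73% of all probes in the higher direction. Leaving out any other single array did not bring Ptgs1 past the threshold. The difference was 0.72 without control array 4 and 0.69 in the authors' normalized table. Over the 21 alternatives the limma adjusted p of Ptgs1 ranged from 0.00377 to 0.388.

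Ptgs2 encodes the inducible cyclooxygenase, known as an early response gene of inflammation. Control arrays 1 to 4 read 8.71, 9.17, 9.77 and 9.95 for it. The irradiated arrays read 10.24, 10.07, 10.80, 10.78 and 10.41. The groups did not overlap, but the gap between the nearest arrays was 0.13, and control arrays 1 and 2 lay below control arrays 3 and 4. The probe was printed on 9 or 10 usable spots per array, and the SD among the spots of an array was 0.033 to 0.11 before normalization, which measures the spread within an array only. Means were 9.40 ± 0.57 (SD, n = 4) and 10.46 ± 0.32 (SD, n = 5), a difference of 1.06 (SE 0.26, 95% confidence interval 0.47 to 1.65) or 2.09-fold. It had the largest positive difference of the 10 genes, although that of Hpgds was larger without irradiated array 1 and with the scan pairs as a block or a random block. Without control array 1 the difference of Ptgs2 was 0.83, smaller than those of Hpgds and Ptgs1. The unadjusted limma p was 0.00241, the adjusted p was 0.157, and the exact permutation p was 0.00794, the smallest that 4 arrays against 5 can give. In the authors' normalized table the groups overlapped, with a difference of 0.96.

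Of the 5 prostanoid synthases, Tbxas1 and Hpgds had the larger differences. Tbxas1 makes thromboxane A2 and is known from platelets and macrophages. It read 11.64, 11.02, 10.87 and 10.93 on the control arrays and 11.43, 12.04, 11.70, 11.97 and 11.75 on the irradiated arrays. The overlap came from control array 1 and irradiated array 1 alone. The difference was 0.67 (SE 0.18, 95% confidence interval 0.26 to 1.07), or 1.59-fold, with an unadjusted limma p of 0.00413, an adjusted p of 0.196 and an exact permutation p of 0.0238. Without irradiated array 1 the groups did not overlap and the difference was 0.75 (limma adjusted p = 0.0933). In the authors' normalized table it was 0.41.

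Hpgds is the hematopoietic prostaglandin D2 synthase of mast cells, T helper 2 cells and some macrophages. Its control values were 6.37, 5.69, 5.29 and 6.27, and its irradiated values were 5.59, 7.08, 6.99, 7.28 and 7.44. Irradiated array 1 lay among the controls, and the other 4 irradiated arrays lay above all of them. The difference was 0.97 (SE 0.39, 95% confidence interval 0.10 to 1.85), or 1.96-fold, with an unadjusted limma p of 0.0324, an adjusted p of 0.422 and an exact permutation p of 0.0794. Without irradiated array 1 it was 1.30 (limma adjusted p = 0.0619), but it was 0.57 with normexp background correction and 0.55 in the authors' normalized table. Leaving out this array thus gave 4 of 10 genes with all irradiated arrays above all controls, against 3.99% of all probes, and leaving out control array 3 as well gave 5, Ptgis being added, against 5.38% of all probes.

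The other prostanoid synthases had confidence intervals that included 0. Ptgis, the prostacyclin synthase of vessel walls, read 14.61, 14.52, 14.79 and 14.42 on the control arrays and 15.00, 14.67, 14.71, 14.86 and 14.64 on the irradiated arrays. Its difference was 0.19 (95% confidence interval -0.04 to 0.42, limma adjusted p = 0.611). Ptges, the inducible prostaglandin E2 synthase that works with Ptgs2, read 15.00, 15.33, 15.25 and 15.10 in control and 15.15, 14.93, 14.86, 15.26 and 15.04 in irradiated lung. That is a difference of -0.12 (95% confidence interval -0.35 to 0.11, limma adjusted p = 0.81). A second probe of Ptges gave 0.35 (limma adjusted p = 0.646), so its probes did not share a sign, and leaving out control array 2 or irradiated array 3 gave -0.07. Ptgds, the lipocalin-type prostaglandin D2 synthase, read 7.55, 7.52, 7.80 and 7.76 in control and 7.59, 7.46, 7.96, 7.37 and 6.99 in irradiated lung. Irradiated arrays 3 and 5 were its highest and lowest arrays, and the difference was -0.18 (95% confidence interval -0.63 to 0.26, limma adjusted p = 0.86). It was -0.06 without irradiated array 5, -0.30 without irradiated array 3 and -0.33 after scaling to the 75th percentile.

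In the leukotriene branch no gene separated the groups. Alox5, the lipoxygenase that starts leukotriene synthesis in myeloid cells, read 11.72, 10.97, 11.57 and 11.63 on the control arrays and 11.95, 11.34, 11.64, 11.04 and 11.12 on the irradiated arrays. The groups covered almost the same range, and the difference was -0.05 (95% confidence interval -0.53 to 0.43, limma adjusted p = 0.984). Ltc4s, which joins glutathione to leukotriene A4, read 12.32, 12.12, 12.21 and 11.83 in control and 12.53, 12.90, 12.51, 12.30 and 11.94 in irradiated lung. Irradiated arrays 1 to 3 lay above all controls and irradiated arrays 4 and 5 did not, and the difference was 0.32 (95% confidence interval -0.08 to 0.72, limma adjusted p = 0.636), or 0.20 without irradiated array 2. Alox15, a 12/15-lipoxygenase known from eosinophils and resident macrophages, was the most variable of the 10 genes. It read 6.28, 5.41, 6.54 and 7.68 in control and 4.69, 6.44, 7.30, 4.44 and 6.21 in irradiated lung, and it was not well above background on irradiated array 1. The difference of -0.66 had a 95% confidence interval of -2.08 to 0.76 (limma adjusted p = 0.83), so the arrays do not settle its sign. When 1 array was left out the value ranged from -1.03 (irradiated 3) to -0.26 (control 4), with -1.02 without control 2, -0.38 without irradiated 1 and -0.32 without irradiated 4. The other 9 genes were well above background on all 9 arrays.

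Within the 4 scan pairs, each an irradiated array minus the control array that shared its scan features, Ptgs1 was higher in all 4, by 0.55, 0.97, 1.06 and 1.16. Ptgs2 was higher by 1.37, 1.63, 1.00 and 0.46. Hpgds was higher by 0.71, 1.30, 1.99 and 1.18, and Tbxas1 by 0.40, 0.68, 1.10 and 0.82. Ptgis and Ltc4s were also higher in every pair, by 0.060 to 0.22 and by 0.10 to 0.58, whereas Ptges, Ptgds, Alox5 and Alox15 had pairs of both signs. With the scan pair as a block, a fit in which irradiated array 1 adds nothing to the difference, Ptgs1 (0.94, limma adjusted p = 0.0329) and Tbxas1 (0.75, adjusted p = 0.0477) passed the threshold. Hpgds (1.30, limma adjusted p = 0.0556) and Ptgs2 (1.12, adjusted p = 0.0583) did not. That is 2 of 10 genes higher, where 1.55% of all probes were called higher and 2.81% in either direction. With the pairs as a random block, which uses all 9 arrays, Ptgs1 (0.89, limma adjusted p = 0.00377), Ptgs2 (1.09, adjusted p = 0.00929), Tbxas1 (0.72, adjusted p = 0.00964) and Hpgds (1.17, adjusted p = 0.032) all passed. That fit called 4.09% of all probes higher and 7.38% in either direction. No label states that arrays were run in pairs, and among the alternatives run Ptgs2, Tbxas1 and Hpgds passed with this pairing alone.

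**Figure D2:**
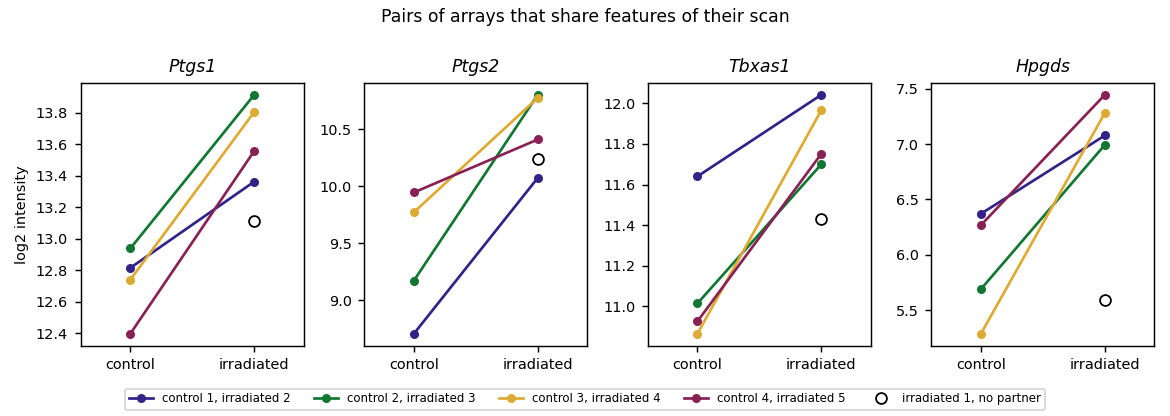
Log2 intensity (vertical axis, a separate scale for each gene) of Ptgs1, Ptgs2, Tbxas1 and Hpgds on the control and irradiated arrays, with a line joining the arrays of each scan pair and an open circle for irradiated array 1, which has no partner. Every line goes up from control to irradiated, by 0.40 to 1.99 on the log2 scale.

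Markers of cells that could carry these RNAs were read on the same arrays, and none of the 106 measured entries of the marker lists passed the threshold. At an unadjusted limma p under 0.05, 6 of the 106 were higher and 18 lower, where 7.37% and 4.98% of all genes were. Of the macrophage and monocyte markers, 8 of 10 were measured and all 8 had positive differences, with a median of 0.53. Their summed intensity was 83209 to 153714 units in control and 124934 to 174890 units in irradiated lung. Csf1r and Lyz2 differed by 0.09 and 0.30, and Lyz2 read 14.66 on control array 2 and 16.06 to 16.34 on the other controls. The lowest of the 8 was -0.09 without control array 2, -0.01 without control array 3 and -0.11 without irradiated array 2. In each of these, 7 of the 8 were positive. At an unadjusted limma p under 0.05, 4 of the 8 were higher, Adgre1 (0.72), C1qa (0.94), C1qb (0.98) and Mertk (0.34), of which Adgre1 did not overlap between the groups. Cd68 and Ly6c2 were not found. The 8 markers of alveolar macrophages, the resident phagocytes of the air spaces, went mostly the other way, with 7 negative differences and a median of -0.40, which was -0.19 without control array 1, -0.69 without control array 2 and -0.62 without irradiated array 1. They summed to 170195 to 406197 units in control and 245516 to 393906 units in irradiated lung. Chil3 differed by 0.68 and Car4 by -0.04. Of the others, chosen after their values were seen, Krt79 (-1.14) and Fabp1 (-1.85) had an unadjusted limma p under 0.05, and all 8 overlapped between the groups. Siglecf is on this list and on that of eosinophils. The 6 platelet markers, among them Pf4 (-0.26) and Ppbp (-0.99), had negative differences with a median of -0.53, and their sum was 24026 to 31037 units in control and 15489 to 24492 in irradiated lung. Ppbp (limma adjusted p = 0.0513, the lowest of all marker entries) and Gp9 (-0.83) lay wholly below the controls, and 4 of the 6 had an unadjusted limma p under 0.05. Tbxas1 and Ptgs1 are known from platelets and macrophages. The 8 neutrophil markers, among them Csf3r (-0.20) and S100a9 (-0.80), also had negative differences, with sums of 269762 to 470239 and 236524 to 341857 units. Their median was -0.66, or -0.42 without control array 1, where 7 of the 8 were negative. Csf3r read 16.42 on irradiated array 3 and 17.22 to 17.37 on the other irradiated arrays.

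Mast cell markers, which bear on Hpgds, Alox5 and Ltc4s, summed to 31868 to 42226 units in control and to 25913 to 38965 in irradiated lung. Most of this sum came from Hdc and Kit, with control means of 14.56 and 13.14 on the log2 scale. The next brightest, Tpsb2, had 9.99, so the sum says little about the other mast cell markers. Of the 7 measured, 3 had positive differences and the median was -0.22. The median had no settled size or sign, since it ranged from -0.49 (without irradiated 4) to -0.07 (without irradiated 1) when 1 array was left out and was 0.04 without control 3 and irradiated 1, with 4 positive. It was also over 1.5 times larger without control 1 or 2 and over 1.5 times smaller without control 3 or irradiated 2. Hdc differed by 0.08 and Kit by -0.83, with all irradiated arrays below all controls, and Ms4a2 was not well above background on any irradiated array. Eosinophil markers, among them Siglecf (-0.47) and Il5ra (-0.20), summed to 2265 to 3399 and 1464 to 2770 units, and Epx was not well above background on any array. All 5 eosinophil differences were negative, with a median of -0.40. Without irradiated array 1 the median was -0.18 and 1 was positive. Smooth muscle markers (6 of 6 negative, median -0.44) summed to 100211 to 135748 units in control and 64182 to 109069 in irradiated lung, with Acta2 at -0.61 and Tagln at -0.35. Endothelial markers, which bear on Ptgis, summed to 169671 to 205042 and 151800 to 185854 units, with Vwf at -0.24 and Cldn5 at 0.18. Of the 7 endothelial markers, 5 had negative differences and 2 positive, with a median of -0.24 (-0.09 without control array 2). Tek (-0.71) alone had an unadjusted limma p under 0.05, where 4.98% of all genes were lower at that p. Of 3 listed club cell markers 2 were measured, Cyp2f2 (-0.56), with all irradiated arrays below all controls, and Scgb1a1 (-0.03). The median difference was -0.30 for club cell and -0.14 for type II cell markers (-0.26 without control 3 and irradiated 1). Those of T cell (0.08), basophil (-0.02), fibroblast (0.07) and mesothelial markers (-0.14) had no settled sign. That of T cells was 0.01 to 0.15 when 1 array was left out and -0.12 after scaling to the 75th percentile. The others turned sign when 1 array was left out, basophils without control 4 (0.20) or irradiated 2 (0.03) and fibroblasts without control 3 (-0.03). Mesothelium did so without control 3 (0.06), control 4 (0.14) or irradiated 5 (0.03). The part of these cell markers in the values of the synthesis genes was not tested.

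The other genes of the pathway were 44 in number, of which 43 were measured. None passed the threshold in either direction, 24 differences were positive and 19 negative, and the median was 0.05. All irradiated arrays lay above all controls for 5 of them (Ptger1, Ptger2, Ptger3, Ptger4 and Cysltr1) and below for 1 (Alox12), against 3.4% and 1.76% of all genes. At an unadjusted limma p under 0.05, 6 were higher and 4 lower, against 7.37% and 4.98% of all genes. After scaling to the 75th percentile 3 lay above, against 1.73% of all probes, and 1 lay above in the authors' normalized table, against 0.614%. The number lying below was 1 to 3 when 1 array was left out and 0 to 4 over all alternatives. The matching shares of all probes lying below were not counted, so these numbers give no result about the genes. Each of the 5 genes above is a receptor for a product of the synthesis genes. The genes with the 5 largest positive differences were Pla2g5, Ptger4, Ptgdr, Ptger1 and Ptger3, and those with the 5 largest negative differences were Alox12, Akr1c18, Aloxe3, Hpgd and Mgst2. Any further gene described was chosen after its values were seen.

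**Figure D3:**
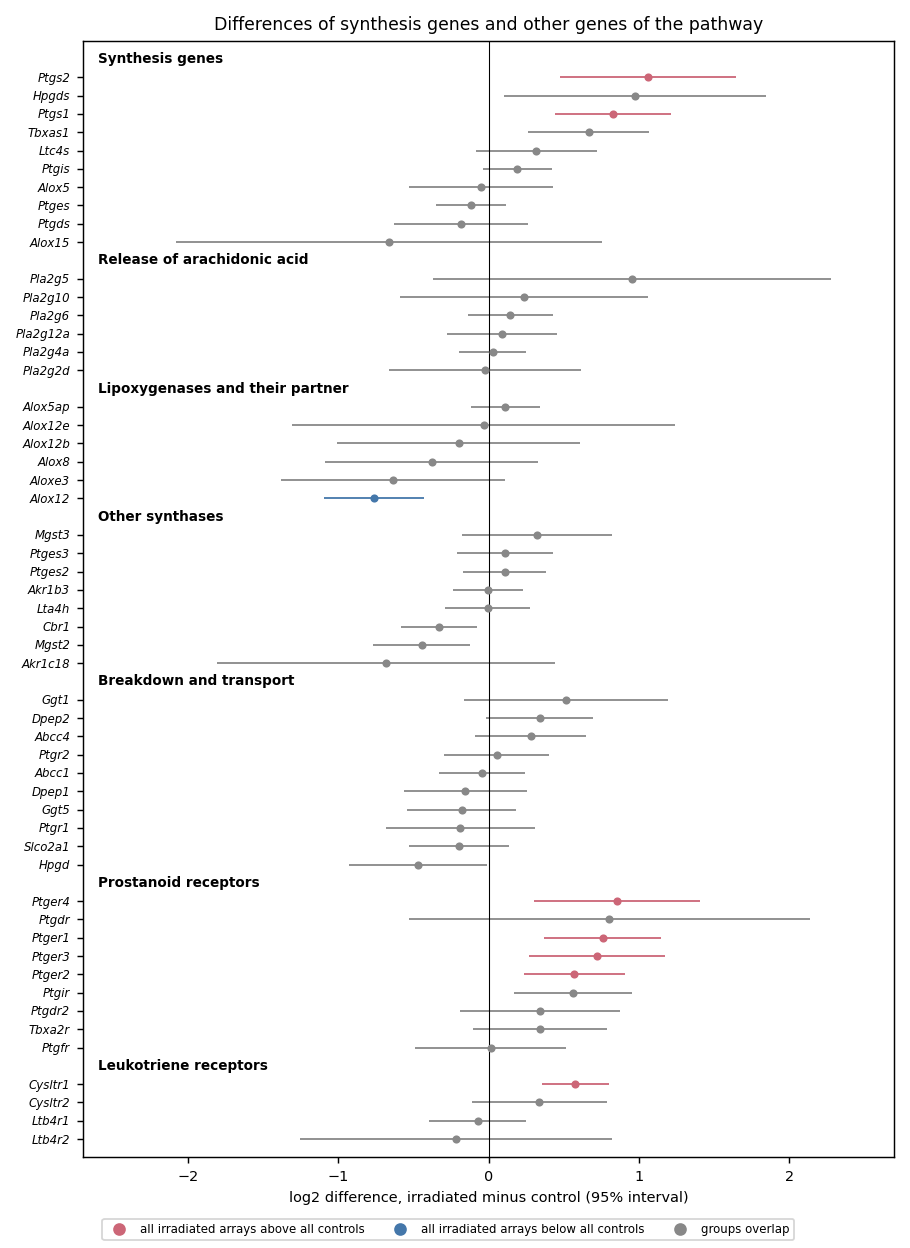
Difference between irradiated and control arrays (horizontal axis, log2 units, point and 95% confidence interval) for the 10 synthesis genes and the 43 other genes of the pathway, grouped by role. The red points, whose irradiated arrays all lie above the controls, are Ptgs1, Ptgs2 and 5 receptor genes, and the blue point, with the reverse, is Alox12.

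The 9 prostanoid receptors had differences from 0.01 to 0.85 with a median of 0.57. Ptgfr, the receptor of prostaglandin F2α, was the one at 0.01 and had no settled sign, being negative in 9 of 21 alternatives, among them scaling to the 75th percentile (-0.08), both scan pair fits and leaving out control array 2 (-0.12). The other 8 stayed positive in every alternative that measured them. The 4 receptors of prostaglandin E2 did not overlap between the groups. All 4 did overlap in the authors' normalized table, and Ptger2 and Ptger3 also did after scaling to the 75th percentile. Ptger1 read 8.42, 8.17, 8.35 and 7.87 on the control arrays and 9.21, 9.12, 8.98, 8.95 and 8.54 on the irradiated arrays. Its difference was 0.76 (SE 0.17, limma adjusted p = 0.125). Ptger4 read 8.39, 8.40, 7.37 and 8.09 in control and 8.67, 9.36, 9.16, 8.62 and 8.79 in irradiated lung, a difference of 0.85 (SE 0.25, limma adjusted p = 0.23). It had the largest difference of the 9 receptors, with control array 3 the lowest array. Without control array 3 its difference was 0.62, smaller than that of Ptger1. Over the scan pairs the mean difference of Ptgdr was larger (1.16 against 0.91 for Ptger4). Ptger3 read 7.25, 6.66, 6.60 and 7.14 in control and 7.34, 7.96, 7.57, 7.53 and 7.76 in irradiated lung, a difference of 0.72 (SE 0.20, limma adjusted p = 0.216), and its second probe gave 0.73 without overlap. With normexp background correction it was 0.47, and it was 0.39 with overlap in the authors' normalized table. Ptger2 read 9.49, 9.46, 9.83 and 9.21 in control and 10.20, 10.02, 9.87, 10.35 and 9.89 in irradiated lung, a difference of 0.57 (SE 0.15, limma adjusted p = 0.188). The gap between its groups was 0.05, the narrowest of the 4. With the scan pair as a block all 4 passed the threshold (limma adjusted p from 0.0307 to 0.0378), where 1.55% of all probes were called higher, and with random blocks all 4 did too (0.00485 to 0.00869), where 4.09% were.

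Among the receptors of the other prostanoids, Ptgir, which binds prostacyclin, read 10.15, 10.46, 9.97 and 10.04 in control and 10.24, 10.62, 10.75, 11.11 and 10.87 in irradiated lung. Irradiated array 1 lay below control array 2, and the difference was 0.56 (SE 0.17, limma adjusted p = 0.265). It was higher in 4 of 4 scan pairs and passed with the pairs as a random block (limma adjusted p = 0.024). Ptgdr, a prostaglandin D2 receptor, differed by 0.80 but was well above background on only 1 control and 2 irradiated arrays, and its difference was 1.31 without control array 4 and 0.50 without irradiated array 5, and 0.23 with normexp background correction. Ptgdr2, the other D2 receptor, and Tbxa2r, the thromboxane receptor, each differed by 0.34 (limma adjusted p = 0.732 and 0.653). Ptgdr2 was 0.19 without control array 3 and 0.11 after scaling to the 75th percentile, and Tbxa2r was 0.22 without control array 2 and 0.15 in the authors' normalized table. Of the 4 leukotriene receptors, Cysltr1, which binds cysteinyl leukotrienes, had the smallest p of the pathway. It read 9.72, 9.67, 9.77 and 9.73 on the control arrays and 10.16, 10.18, 10.44, 10.44 and 10.27 on the irradiated arrays. The control arrays lay close together and the gap to the irradiated arrays was 0.39. Its difference was 0.58 (SE 0.10, 95% confidence interval 0.36 to 0.80, limma adjusted p = 0.0513, exact permutation p = 0.00794), and a second probe gave 0.63 (limma adjusted p = 0.159). The adjusted p of Cysltr1 was under the threshold in some alternatives, at 0.0311 without irradiated array 1, 0.0423 with array weights, 0.0444 with the filter on all 9 arrays, and 0.035 and 0.00199 in the 2 scan pair fits (limma). Cysltr2 differed by 0.34 (0.14 after scaling to the 75th percentile), Ltb4r1 by -0.07 and Ltb4r2 by -0.22, and each overlapped between the groups. The signs of Ltb4r1 and Ltb4r2 turned positive in some alternatives, without control array 3 among them (0.02 and 0.11).

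**Figure D4:**
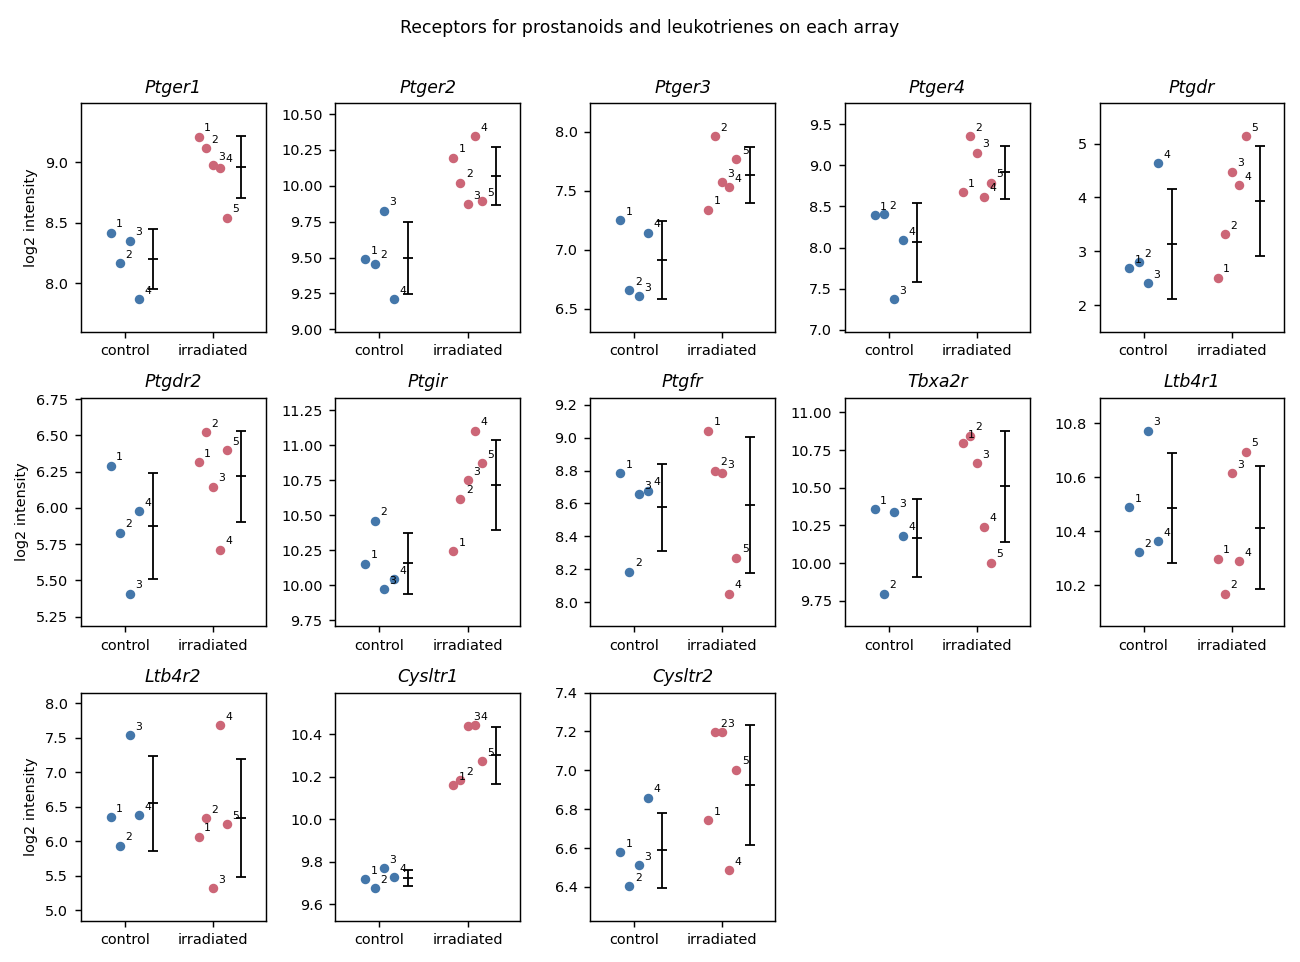
Log2 intensity of the 13 prostanoid and leukotriene receptor genes on each array (vertical axis, a separate scale for each gene), with control arrays in blue, irradiated arrays in red and bars for the group mean ± SD. Ptger1, Ptger2, Ptger3, Ptger4 and Cysltr1 do not overlap between the groups.

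The enzymes before and after the synthases showed no such separation, apart from Alox12. Alox12, the lipoxygenase known from platelets, read 10.76, 10.76, 11.30 and 10.99 on the control arrays and 10.08, 10.21, 10.49, 9.94 and 10.25 on the irradiated arrays. Every irradiated array lay below every control array, and the difference was -0.76 (SE 0.15, 95% confidence interval -1.09 to -0.43, limma adjusted p = 0.0763, exact permutation p = 0.00794). Alox12 was lower in 4 of 4 scan pairs and passed with the pairs as a random block (-0.74, limma adjusted p = 0.0126), but not with the pair as a block (adjusted p = 0.106). It was -0.47 in the authors' normalized table, and a second probe gave -0.35 with overlap. The platelet markers given above had negative differences as well, and their part in this value was not tested. Aloxe3, a lipoxygenase of the skin barrier, differed by -0.64 (limma adjusted p = 0.592), with control array 3 at 10.41 and the other arrays at 8.22 to 9.05. Without control array 3 its difference was -0.25. Alox5ap, the partner protein of Alox5, read 13.50 to 13.89 in control and 13.60 to 13.96 in irradiated lung.

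Of the phospholipases that release arachidonic acid, the secreted Pla2g5 differed by 0.95 with a wide 95% confidence interval of -0.37 to 2.28 (limma adjusted p = 0.684). That was 0.47 without control array 3 and 0.54 as the mean of its probes. It ranged from 5.48 to 8.29 in control and from 6.57 to 8.84 in irradiated lung. Pla2g4a, the cytosolic phospholipase known as a main source of arachidonic acid, differed by 0.03 (95% confidence interval -0.20 to 0.25). Among the other synthases, the aldo-keto reductase Akr1c18 differed by -0.68 (limma adjusted p = 0.752; -0.22 without control array 1, -0.40 without irradiated array 5), Mgst2, which can make leukotriene C4, by -0.45 (limma adjusted p = 0.293, or 0.0418 with scan pairs as random blocks) and Cbr1, a carbonyl reductase of prostaglandins, by -0.33 (limma adjusted p = 0.32, or 0.02 with scan pairs as random blocks). Lta4h, which makes leukotriene B4, differed by -0.01, and like Pla2g4a it changed sign in some alternatives. Hpgd, the dehydrogenase that begins the breakdown of prostaglandins, read 15.19, 14.74, 14.88 and 14.97 in control and 15.14, 14.62, 14.41, 14.07 and 14.12 in irradiated lung. Irradiated array 1 lay among the controls and the other 4 irradiated arrays lay below all of them. Its difference was -0.47 (SE 0.21, limma adjusted p = 0.488), and it was -0.64 with the scan pair as a block (limma adjusted p = 0.0469) and -0.57 with the pairs as a random block (adjusted p = 0.0364). The uptake carrier Slco2a1 differed by -0.20 (-0.12 without control array 3, -0.13 without irradiated array 5) and the export pump Abcc4 by 0.28 (0.17 in the authors' normalized table), with overlap in both.

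Ptgs1 had the smallest p of the 10 genes, and its profile over the 9 arrays, relative to the control mean, was set against 15230 genes that were well above background on every array. The nearest was Etv4, a transcription factor of the ETS family, with a root mean square difference of 0.15. It read 8.54, 8.75, 8.82 and 8.42 in control and 9.17, 9.46, 9.88, 9.97 and 9.51 in irradiated lung. Cd164l2 (0.16) and Mt1, a metallothionein (0.17), came next. Likeness of profile was the criterion by which they were picked, so their differences are no separate result.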

How the data were processed

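Total RNA of lung tissue, pooled per sample, was hybridized to Agilent mouse 44K single-color arrays. The authors deposited the Feature Extraction output of each array as intensity values without normalization between arrays, and the other columns used (flags for outlier, saturated and well-detected spots) as the software wrote them. They also deposited a normalized intensity table, found to be the median signal minus the median background, quantile normalized, with no value for signals up to 1.5 times the background. It served as an alternative. Feature Extraction's version is not given in the sources used here.

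The background-corrected processed signal was taken. Control and outlier spots were dropped. A probe stayed if its signal exceeded the local background by a factor of 1.4 on 4 or more of the 9 arrays (39303 of 39429). After log2 transformation and quantile normalization, spots of a probe were averaged. Probe accessions gave 19747 symbols for 26049 probes through a RefSeq gene table of GRCm38.p6, used for names, and 1 listed pathway gene was not found. A gene was read from its brightest probe. Groups were compared with limma 3.58.1 in R 4.3.3 (intensity trend, two-sided, Benjamini-Hochberg over all probes, adjusted p under 0.05), with an exact permutation test (two-sided) on the group means over the 126 ways to choose 4 of 9 arrays. The script was tested on simulated data.

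The members, the pathway list, the cell markers and the tests were chosen with earlier results of these data known. Named were all members, the 5 largest positive and 5 largest negative differences of the pathway list, the 3 profiles nearest to the member with the smallest p, and the brightest 2 markers of a list described. Any further marker described was chosen after its values were seen. Alternatives were normexp background correction (offset 50), scaling to the 75th percentile, the filter on all arrays or none, the authors' table, no intensity trend, array weights, a gene's mean over all probes, each array left out, the replicate number or the scan pair as a block and, chosen after seeing the data, control 3 and irradiated 1 left out together. The number of arrays limits the precision.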

Additional observations from a re-analysis of the deposited data

Results flagged for a closer look

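In groups of 4 or 5 arrays, the array farthest from the rest was compared with the range of its group. Among 106 groups of the synthesis and pathway genes, 3 (2.83%) had an array that far apart, where chance would give 5.3. Hpgds on irradiated array 1 was 5.59, against 6.99 to 7.44 on the other irradiated arrays. Alox8, a lipoxygenase, was 3.43 on control array 3, against 1.90 to 1.96 on the other controls, where it was not well above background. Ptgr1, a prostaglandin reductase, was 12.50 on control array 2, against 12.12 to 12.16 on the other controls.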

How the results depend on the processing

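Of 210 values of the 10 synthesis genes under 21 alternatives, 197 kept their direction and their side of the threshold, 7 passed it and 6 changed sign. Changes of sign were limited to Ptges and Alox5, both close to 0. Ptges was 0.12 as the mean of all its probes. Alox5 was 0.022 with the replicate number as a block and -0.22 to 0.042 when 1 array was left out, positive without control 1 or 4 or irradiated 4 or 5. The number of synthesis genes past the threshold, 0, became 2 with the scan pair as a block, 4 with it as a random block and 0 to 1 when 1 array was left out, all of them higher. That of other pathway genes, 0, became 1 with the filter on all 9 arrays (0.596% of all probes), 1 with array weights (0.473%), 6 and 10 with the scan pairs (2.81% and 7.38%), and 0 to 1 when 1 array was left out. The number of synthesis genes without overlap, 2, was 1 in the authors' table, 2 to 4 when 1 array was left out and 5 without control 3 and irradiated 1. Leaving out irradiated 1 gave the upper end of these 3 ranges of counts. Of 292 values of 14 pathway genes tracked under the alternatives, 274 were the same and 18 passed the threshold. Of all 43, 15 changed sign in some alternative. Same-numbered arrays did not deviate together (r from -0.15 to 0.10 across genes). The labels state no pairing by title number, and these correlations cannot exclude one. With the replicate block, 0 synthesis genes and 1 of all probes passed, against 131 without it. When 1 array was left out, 5 (without control 3) to 476 (without irradiated 1) of all probes passed. Scaling to the 75th percentile moved the median of all probes by -0.07. The number of arrays limits the precision, and Alox15, Ptgdr, Pla2g10 and Alox8 each failed the mark for well above background on some array.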
